A study of Mus musculus with 24 samples.

Results

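The genes described are those for voltage-gated sodium and calcium channels, 39 genes read by 55 probes on an Agilent mouse array that holds 55681 probes for 36163 gene names. They were taken by name alone, as every probe that is not a control and whose gene name is that of a sodium channel alpha (Scn followed by a number and a) or beta (the same with b) subunit, or of a calcium channel alpha-1, alpha2delta, beta or gamma subunit (Cacna, Cacna2d, Cacnb and Cacng). The names alone decided which probes belong, though the set itself was proposed with earlier results of these data known. They fall into 9 sodium channel alpha genes, 4 sodium channel beta genes, 10 calcium channel alpha-1 genes, 4 alpha2delta genes, 4 beta genes and 8 gamma genes. A single probe read 25 of the genes, 2 probes read 12 and 3 probes read 2, Scn3a and Scn8a. Scn2a, a main sodium channel of the forebrain, carries its older name Scn2a1 on this array, so it lies outside the rule, and its values are given beside the members. Of the 55 probes, 50 were well above background on all 15 arrays, 1 on none and 4 on some.

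The samples were hippocampi of male C57BL/6 mice killed on postnatal day (P) 9, both hippocampi of an animal pooled, with 5 animals and 5 arrays in each of 3 groups. Con pups were not treated, stayed with the dam and were handled as little as possible. From P5, MS2 pups received morphine injected under the skin at 2 mg/kg and MS5 pups at 5 mg/kg, and both had the stress protocol, which joined isolation from the dam with brief nitrogen breathing to mimic apnea. No group had stress without morphine or morphine without stress, so in a contrast with Con the 2 cannot be told apart, and only MS5 against MS2 compares doses. Both contrasts with Con use the same 5 Con arrays. Levels are given as log2 of the background-adjusted, quantile-normalized intensity of a probe, differences are differences of group means on that scale, and within a group the arrays are listed from the lowest value to the highest. Levels of different probes are not comparable with each other, because probes bind with different strength.

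Voltage-gated sodium channels carry the rising phase of the action potential. Their alpha subunit forms the pore, and beta subunits set its gating and its place in the membrane. Voltage-gated calcium channels turn depolarization into calcium entry: Cav1 channels in cell bodies and dendrites couple activity to gene expression, Cav2 channels at nerve endings trigger transmitter release, and Cav3 channels open near the resting potential and favour burst firing. The alpha2delta and beta subunits bring these channels to the membrane, whereas most brain gamma subunits are transmembrane AMPA receptor regulatory proteins (TARPs), which escort glutamate receptors to synapses.

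Several arrays stood apart. Values without MS2 replicate 4 are given beside the results it moves, and values without other single arrays where they move a count or a call, or the Scn4b difference. On the array labelled MS2 replicate 4, most markers of hippocampal principal neurons were far lower than on the other 14 arrays. Most markers of the diencephalon were higher there, some of them far higher. Both go against its label as hippocampus. Neurod6, a transcription factor of cortical and hippocampal excitatory neurons, was at 10.02 there and between 13.03 and 13.89 on the others. Hcrt, the hypothalamic peptide orexin, was at 12.31 there and at most 8.45 on the others, and Pmch, another hypothalamic peptide, at 13.33 and at most 7.55. Other markers did not set it apart. Prox1, of the hippocampal list, was at 9.43 there and at 9.47 on Con replicate 19. Avp, at 10.58, and Oxt, at 9.23, were higher on MS5 replicates 8, 12 and 14. The mean over all 6 hippocampal principal neuron markers was 10.17 on that array and between 12.43 and 13.07 on the others, and over all 8 diencephalic markers it was 11.46 and between 7.68 and 9.86. A list of 8 striatal genes, added after values were seen, had a mean of 12.91 on Con replicate 19, 12.98 on MS2 replicate 5, 13.36 on MS5 replicate 8, 12.24 on MS5 replicate 14 and 12.18 on MS5 replicate 12, and between 10.39 and 11.03 on the other 10. MS2 replicate 5 also had the dimmest scan, with a median spot signal of 51.0 against 100 to 128. MS5 replicate 9, labelled male, had the female transcript Xist at 11.34 against 5.89 to 6.08 elsewhere. Choroid plexus markers, a list of 8, had means of 9.07 on MS5 replicate 14 and 10.19 on MS5 replicate 9, against 11.80 to 13.09 on the other 13 arrays. Folr1 and Kcnj13, the largest of that list, differed by -2.0 and -1.56 in MS5 against Con, and the others by -1.54 to -1.11. The hypothalamic peptide genes Avp, Oxt and Trh, the largest of the diencephalic list, differed by 2.53, 1.79 and 1.89. The others of that list differed by -0.003 (Lhx9), 0.03 (Hcrt), 0.10 (Tcf7l2), 0.35 (Pmch) and 1.02 (Six3). Gad2, an enzyme of GABA synthesis, differed by 0.45, the largest of the interneuron list, whose others differed by 0.183 to 0.325. The part of such tissue in the channel differences was not tested.

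None of the 55 probes differed between groups after adjustment over all probes of the array, and none passed a 1.5-fold difference at an unadjusted p under 0.05. In MS2 against Con, 4 of the 55 probes (7.27%) had an unadjusted limma p under 0.05, while 4.17% of all probes did. They were 3 higher and 1 lower, against 2.05% and 2.12% of all probes. In MS5 against Con there were 2 (3.64%), against 3.91% of all probes. Both were higher, against 1.47% higher and 2.44% lower of all. In MS5 against MS2 there was 1 (1.82%), against 3.97% of all probes. It was lower, against 1.72% higher and 2.26% lower of all. In this fit of all 15 arrays the share among the channel genes was above that of the array in MS2 against Con and below it in both other contrasts, and it rested on 1 to 4 probes. The order turned in all 3 contrasts in other settings. In MS5 against Con the share was 18.2% against 5.92% of all probes without MS2 replicate 4 and 18.2% against 5.78% with only the groups compared. It was 16.4% against 6.43% with limma array weights, which count variable arrays less. Without Con replicate 19, MS2 replicates 4 and 5 and MS5 replicate 8 it was 12.7% against 6.36%. In MS5 against MS2 the share was 14.5% against 9.7% with array weights and 16.4% against 9.42% without those 4 arrays. Without MS2 replicate 5 it was 7.27% against 4.66%. In MS2 against Con it was 3.64% against 3.74% with only the groups compared and 3.64% against 4.41% without MS2 replicate 7. The smallest adjusted p of a channel probe was 0.97 in MS2 against Con and 1 in both other contrasts, and 0 of the 55681 probes passed an adjusted p of 0.05 in any of the 3. A 1.5-fold difference with an unadjusted p under 0.05 was found for 0 channel probes, and for 0.0233%, 0.228% and 0.129% of all probes in MS2 against Con, MS5 against Con and MS5 against MS2.

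Differences were small and mostly above 0. In MS5 against Con, 47 of the 55 probes had a higher mean in MS5, with a median difference of 0.08, while 50.2% of all probes were above 0 and their median was 0.00. In MS2 against Con 38 probes were above 0, with a median of 0.08, against 48.9% of all probes. Without MS2 replicate 4 these were 33 probes and a median of 0.04, against 48.6% of all, and with array weights 29 probes and 0.03. In MS5 against MS2 the count was 32, with a median of 0.02, against 50.7% of all probes, and without MS2 replicate 4 it was 36, with 0.07. Leaving out that array changed the sign of 13 of the 55 differences in MS2 against Con and of 18 in MS5 against MS2. Counted by gene, with the probe of the highest mean level standing for each, 24 of 39 genes were above 0 in MS2 against Con, 33 in MS5 against Con and 26 in MS5 against MS2. These counts have no test, since probes of a gene and genes of an array are not replicates. Of the 55 differences, 47 lay within 0.25 of 0 in MS2 against Con, 49 in MS5 against Con and 53 in MS5 against MS2. Their standard error was 0.116 at the median, which gives a median 95% confidence interval of 0.25 to either side, so differences of the size seen here could mostly not be resolved with 5 arrays per group. In whole tissue, fewer cells of a type and less RNA per cell cannot be told apart.

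**Figure D1:**
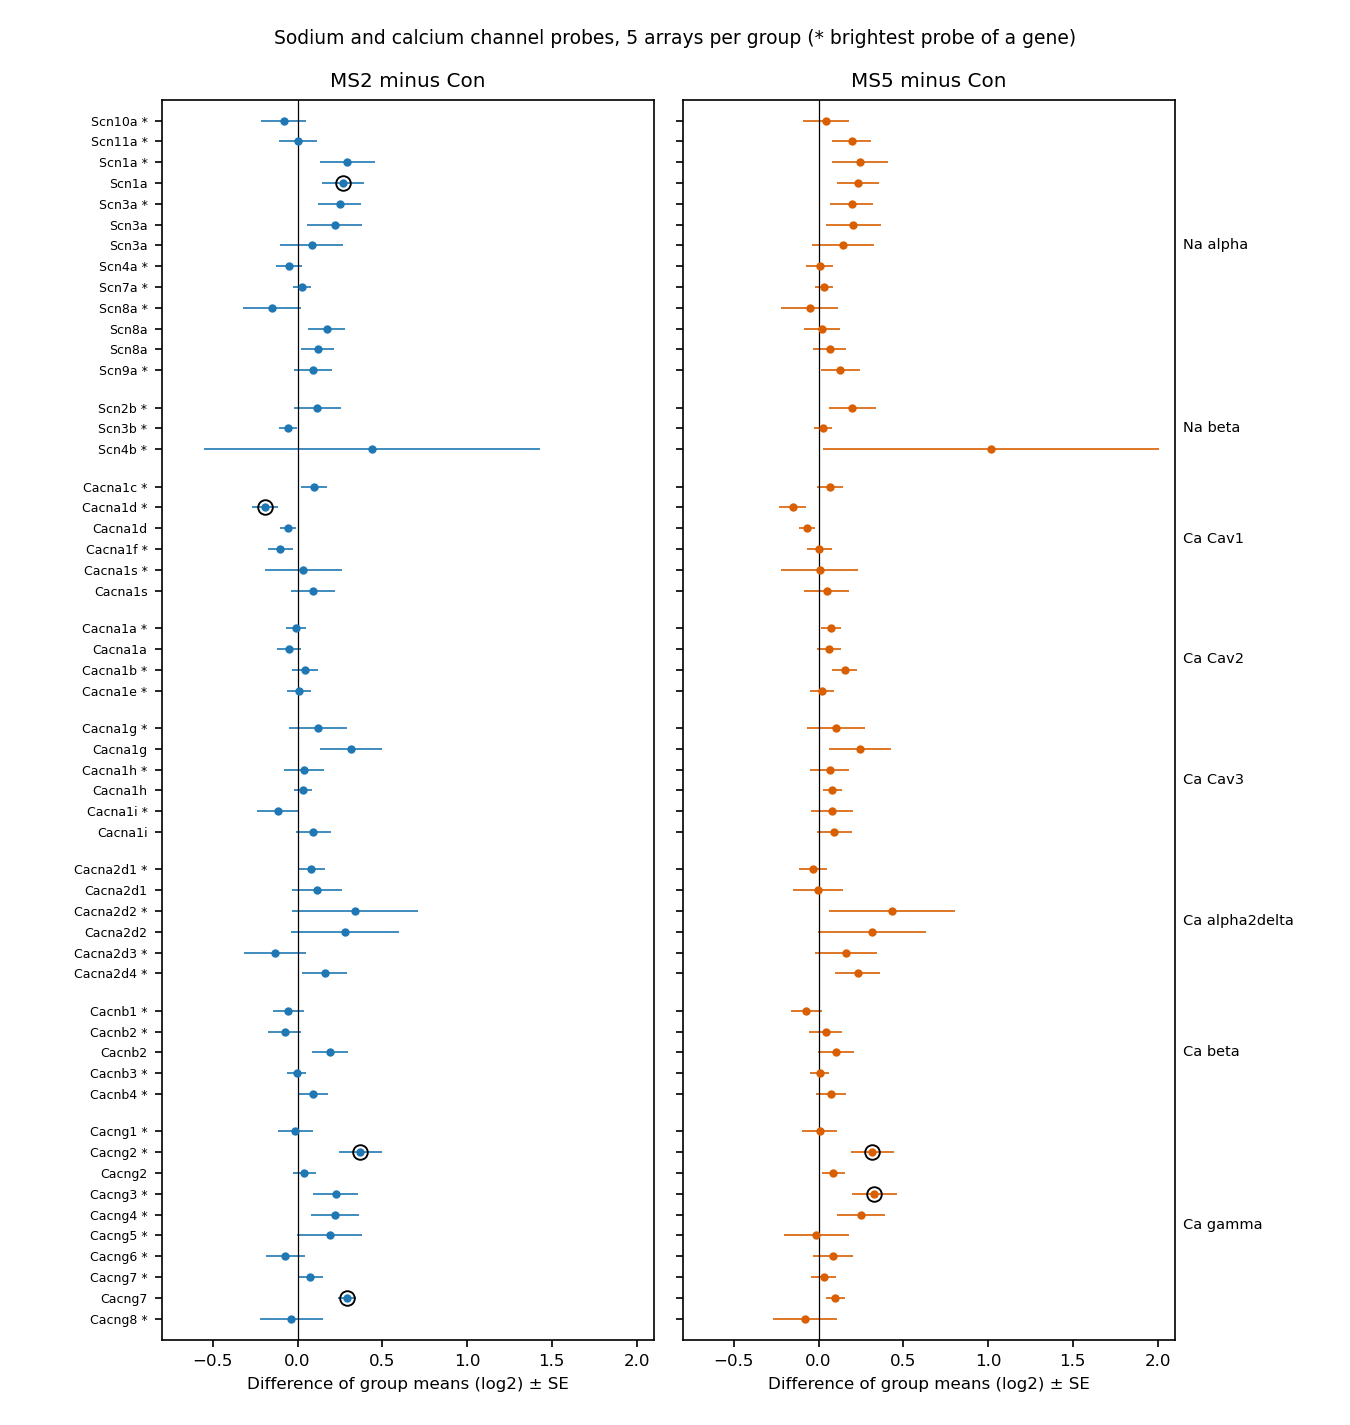
Difference of group means (log2, with its standard error) for 53 channel probes, MS2 minus Con on the left and MS5 minus Con on the right, 5 arrays per group; circled points have an unadjusted limma p under 0.05 and a star marks the probe with the highest mean level of its gene. Most points lie between 0 and 0.25, and Scn4b has by far the widest error.

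Among the sodium channel alpha genes, 11 of 14 probes were above 0 in MS2 against Con and 13 of 14 in MS5 against Con, with medians of 0.10 and 0.14 (9 of 14 and 0.05 in MS2 without replicate 4), and 1 probe, of Scn1a, had an unadjusted p under 0.05. Scn1a, which encodes Nav1.1, the channel that inhibitory interneurons depend on, was read by 2 probes. The probe at chr2:66173498-66173557 (mm9, minus strand) was at 8.0, 8.13, 8.22, 8.34 and 8.46 in Con, 8.15, 8.31, 8.49, 8.57 and 8.99 in MS2 and 8.38, 8.42, 8.48, 8.48 and 8.56 in MS5. MS2 lay higher than Con by 0.27 ± 0.13 (SE, n = 5 per group; limma unadjusted p = 0.0496, adjusted p = 0.97; exact permutation p = 0.135), with the groups overlapping. MS5 lay higher by 0.23 ± 0.13 (unadjusted p = 0.0832), also with overlap. The other probe, at chr2:66111022-66111081 on the minus strand, was at 12.13, 12.26, 12.34, 12.49 and 12.59 in Con, 12.34, 12.44, 12.54, 12.58 and 13.38 in MS2 and 12.40, 12.54, 12.59, 12.62 and 12.89 in MS5. It gave differences of like size, 0.29 ± 0.16 in MS2 and 0.25 ± 0.16 in MS5, and its highest value, 13.38, came from MS2 replicate 4. Without that array the differences in MS2 against Con were 0.15 for the first probe (unadjusted p = 0.142) and 0.11 for the other (unadjusted p = 0.287). With single arrays left out, the first probe kept an unadjusted p under 0.05 in MS2 against Con in 4 of 15 fits, with differences from 0.15 to 0.36, and with the slide as a block its unadjusted p was 0.058.

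Scn3a, which encodes Nav1.3, the alpha subunit that dominates in the immature brain, was read by 3 probes whose differences were all above 0 in both contrasts with Con when every array was kept. Without MS2 replicate 4 they were 0.10, 0.03 and -0.12 in MS2 against Con, so there the shared direction rested on that array. The main probe, chr2:65296320-65296379 on the minus strand, was at 12.44, 12.52, 12.62, 12.72 and 12.78 in Con, 12.65, 12.72, 12.74, 12.76 and 13.47 in MS2 and 12.64, 12.83, 12.83, 12.87 and 12.89 in MS5. In MS2 the value of 13.47 belonged to replicate 4 and the other 4 lay between 12.65 and 12.76, inside the range of Con. MS5 lay higher than Con by 0.19 ± 0.13 (unadjusted p = 0.151; adjusted p = 1), with 4 of 5 MS5 arrays above every Con array. In the fit without MS2 replicate 4, where the differences of MS5 and Con are the same and the pooled spread is smaller, the unadjusted p of this probe was 0.0104 (adjusted p = 0.611).

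Scn8a, which encodes Nav1.6, the channel of mature axon initial segments and nodes, gave different signs at different probes. Its main probe, chr15:100875702-100875761, was at 10.59, 10.95, 11.06, 11.12 and 11.20 in Con, 10.58, 10.60, 10.60, 10.78 and 11.58 in MS2 and 10.75, 10.88, 10.89, 11.04 and 11.09 in MS5. MS2 was lower than Con by 0.15 ± 0.17 (a difference of -0.15), and MS5 differed from Con by -0.05 ± 0.17, with all groups overlapping. The value of 11.58 came from MS2 replicate 5, and the other 4 MS2 arrays lay between 10.58 and 10.78. The probe at chr15:100766904-100766963 was higher in MS2 than in Con by 0.17 ± 0.11 and that at chr15:100848863-100848922 by 0.12 ± 0.10. Without Con replicate 19, MS2 replicates 4 and 5 and MS5 replicate 8, a choice made after seeing the data, the main probe was lower in MS2 by 0.35 (a difference of -0.35) and the third probe higher by 0.27. These have no test, since the array with the highest value of the main probe is among those left out.

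Scn2a1, which encodes Nav1.2, the channel of immature axons and of excitatory neurons, was read by 3 probes. Its main probe, chr2:65605429-65605488, was at 13.67, 13.75, 13.92, 13.96 and 13.99 in Con, 13.68, 13.86, 13.91, 13.91 and 14.03 in MS2 and 13.81, 13.86, 13.91, 14.02 and 14.07 in MS5. The differences were 0.03 ± 0.08 in MS2 and 0.08 ± 0.08 in MS5, within the spread of the arrays. The probe at chr2:65521868-65521927 was at 9.12, 9.35, 9.38, 9.41 and 9.68 in Con, 9.62, 9.64, 9.66, 9.68 and 9.71 in MS2 and 9.39, 9.47, 9.57, 9.65 and 9.71 in MS5. There MS2 lay higher than Con by 0.28 ± 0.08 (limma unadjusted p = 0.00518, adjusted p = 0.97; exact permutation p = 0.0317), and only Con replicate 15, at 9.68, reached into the MS2 range.

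Other alpha genes are better known from muscle and sensory nerves. Scn11a, which encodes the sensory neuron channel Nav1.9, was at 8.93, 8.94, 8.98, 9.0 and 9.03 in Con, 8.75, 8.84, 9.0, 9.04 and 9.27 in MS2 and 8.83, 8.99, 9.24, 9.31 and 9.49 in MS5. MS5 lay above Con by 0.20 ± 0.11 (unadjusted p = 0.106), with a spread in MS5 (SD 0.26) well above that in Con (SD 0.04). Scn9a, a channel of sensory neurons, had differences of 0.09 in MS2 (-0.02 without replicate 4) and 0.13 in MS5, and Scn4a, the muscle channel, differed by -0.05 and 0.01, neither with an unadjusted p under 0.05. Scn7a was well above background on 0 Con, 1 MS2 and 2 MS5 arrays, and Scn10a on 3, 2 and 3, so their differences are not interpreted.

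Of the 4 sodium channel beta genes, none had an unadjusted p under 0.05 in any contrast. Scn2b and Scn3b, which tune alpha subunits, differed from Con by 0.12 and -0.06 in MS2 and by 0.20 and 0.03 in MS5. Scn3b was at 13.15, 13.20, 13.24, 13.24 and 13.27 in Con, 13.08, 13.10, 13.16, 13.21 and 13.26 in MS2 and 13.11, 13.16, 13.28, 13.34 and 13.34 in MS5, with little spread in any group.

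Scn4b had the widest spread of all the channel probes. It encodes the beta-4 subunit, which supports resurgent sodium current and is abundant in striatal projection neurons. Its levels, at chr9:44962045-44962104, were 7.97, 8.19, 8.23, 8.73 and 12.18 in Con, 8.29, 8.34, 8.47, 10.18 and 12.23 in MS2 and 7.99, 9.28, 10.11, 10.42 and 12.61 in MS5. MS5 lay above Con by 1.02 ± 0.99 (unadjusted p = 0.322; exact permutation p = 0.365) and MS2 by 0.44 ± 0.99 (unadjusted p = 0.664), the largest differences among the channel probes, and both were within the spread. The residual SD was 1.73, against a median of 0.198 over the 55 probes and 0.11 over all probes. High values occurred in every group, on Con replicate 19 at 12.18, MS2 replicate 5 at 12.23 and MS5 replicate 8 at 12.61. These are the 3 arrays with the highest mean of the striatal list. MS5 replicates 12 and 14, at 10.42 and 10.11, and MS2 replicate 4, at 10.18, came next, and they also held the next places in that list. Drd2, the dopamine D2 receptor, was at 7.97, 8.12 and 8.42 on the first 3 of these arrays, between 7.36 and 7.61 on the next 3 and between 6.74 and 7.01 on the other 9. It was also among the genes that followed Scn4b most closely over the 15 arrays (Pearson r = 0.98). Other genes of the striatal list did not follow on MS2 replicate 4. There Drd1a, at 7.94, and Ppp1r1b, at 11.01, were near their lowest values of all 15 arrays, 7.90 and 10.73. With Con replicate 19, MS2 replicates 4 and 5 and MS5 replicate 8 left out together, the Scn4b difference of MS5 and Con was 1.17. It has no test, since the highest array of each group is among those left out. MS5 replicates 12 and 14, with striatal means of 12.18 and 12.24 against at most 10.64 in the remaining Con arrays, were kept and lay above all of the latter. With single arrays left out the difference of MS5 and Con ran from 0.39 without MS5 replicate 8 to 1.80 without Con replicate 19, and was 1.54 without MS5 replicate 9, and that of MS2 and Con ran from -0.24 without MS2 replicate 5 to 1.22 without Con replicate 19. On slide 1 MS5 lay above Con by 2.64 and on slide 2 the difference was -0.70, so the direction was not the same on the 2 slides. Scn4b was described after its values were seen, as was Cacna2d2, and the part of striatal RNA in the Scn4b difference was not tested.

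**Figure D2:**
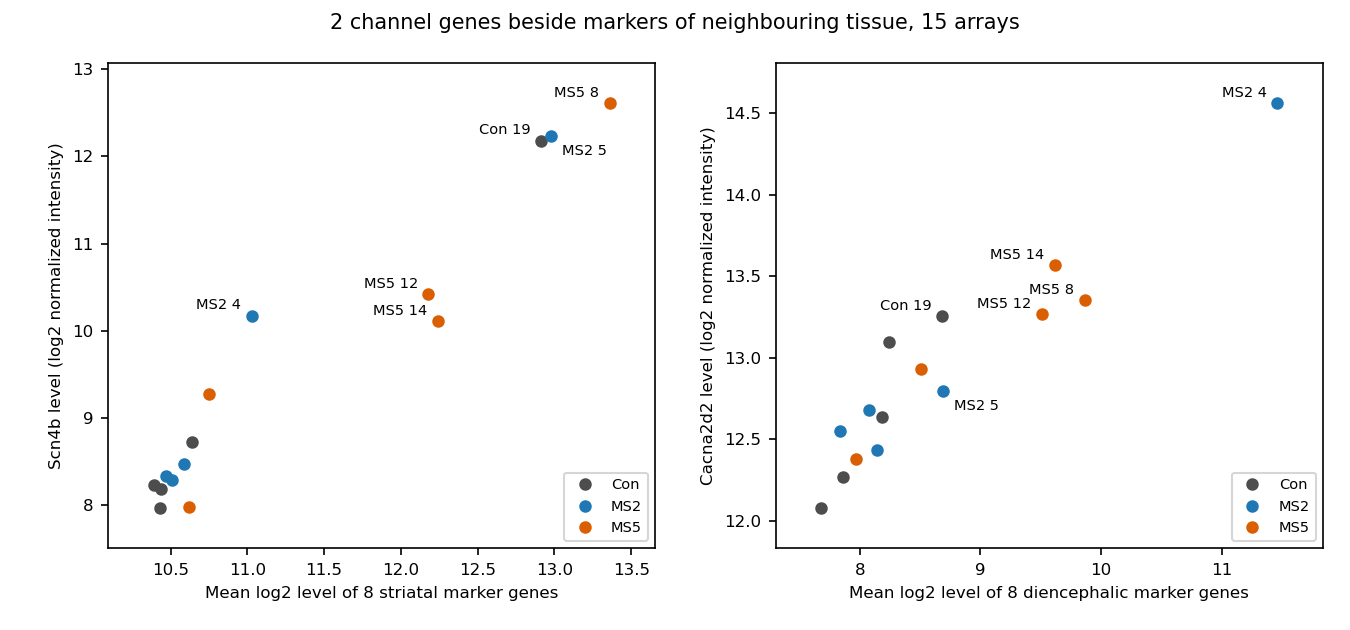
Left, the log2 level of Scn4b in each of the 15 arrays against the mean log2 level of 8 striatal marker genes; right, the same for Cacna2d2 against 8 diencephalic markers, with colours for Con, MS2 and MS5. Con 19, MS2 5 and MS5 8 lie highest in both measures on the left, and MS2 4 lies apart on the right at 14.56.

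Among the Cav1 genes, 3 of 6 probes were above 0 in MS2 against Con and 4 of 6 in MS5 against Con, with medians of -0.01 and 0.01 (1 of 6 and -0.08 in MS2 without replicate 4). Cacna1d, which encodes Cav1.3, an L-type channel that opens at low voltage, held the one lower value at an unadjusted p under 0.05. Its main probe, chr14:30853773-30853832 on the minus strand, was at 9.83, 9.88, 9.91, 10.08 and 10.10 in Con, 9.55, 9.71, 9.73, 9.82 and 10.02 in MS2 and 9.75, 9.77, 9.78, 9.80 and 9.93 in MS5. The MS2 mean was 9.77 ± 0.17 (SD, n = 5) against 9.96 ± 0.12 in Con, a difference of -0.19 ± 0.08 (limma unadjusted p = 0.0272, adjusted p = 0.97; exact permutation p = 0.0794). MS5 differed by -0.15 ± 0.08 (unadjusted p = 0.071; exact permutation p = 0.0556), and both groups overlapped with Con. In MS2 against Con the unadjusted p was above 0.05 without Con replicate 18 or 19 or without MS2 replicate 1, 4 or 7, with differences from -0.18 to -0.14. The other Cacna1d probe differed by -0.06 and -0.07. Cacna1c, which encodes Cav1.2, the main L-type channel of the hippocampus, was at 6.71, 6.88, 6.92, 6.96 and 7.09 in Con, 6.95, 6.96, 6.99, 7.04 and 7.12 in MS2 and 6.76, 6.95, 7.0, 7.06 and 7.14 in MS5. Its differences, 0.10 ± 0.08 in MS2 and 0.07 ± 0.08 in MS5, were within the spread. Cacna1f and Cacna1s, the retinal and muscle L-type channels, differed by between -0.10 and 0.09 in both contrasts, and Cacna1f was well above background on 8 of the 15 arrays.

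The Cav2 genes had differences between -0.05 and 0.04 in MS2 and between 0.02 and 0.15 in MS5. Cacna1a, which encodes the P/Q-type channel of fast synapses, was at 12.59, 12.60, 12.62, 12.67 and 12.72 in Con, 12.43, 12.61, 12.61, 12.76 and 12.78 in MS2 and 12.67, 12.67, 12.71, 12.74 and 12.78 in MS5 with its main probe. MS5 lay higher than Con by 0.07 ± 0.06 (unadjusted p = 0.235; exact permutation p = 0.0794). Its other probe was at 10.81, 10.84, 10.85, 10.87 and 10.93 in Con, 10.63, 10.79, 10.87, 10.87 and 10.88 in MS2 and 10.79, 10.80, 10.89, 10.94 and 11.19 in MS5 and differed by -0.05 in MS2 and 0.06 in MS5. Cacna1b, the N-type channel that opioid receptors inhibit at nerve endings, was at 7.05, 7.16, 7.27, 7.32 and 7.33 in Con, 7.16, 7.19, 7.31, 7.35 and 7.35 in MS2 and 7.17, 7.32, 7.39, 7.47 and 7.57 in MS5. MS5 lay higher than Con by 0.15 ± 0.08 (unadjusted p = 0.0583) and the groups overlapped. Cacna1e, the R-type channel, was at 6.82, 6.84, 6.88, 6.92 and 6.97 in Con, 6.58, 6.92, 6.92, 6.94 and 7.09 in MS2 and 6.84, 6.85, 6.92, 6.95 and 6.95 in MS5 and differed by 0.01 and 0.02.

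For the Cav3, or T-type, genes all 6 probes were above 0 in MS5 against Con and 5 of 6 in MS2 against Con (4 of 6 without MS2 replicate 4), with none at an unadjusted p under 0.05. Cacna1g, the channel of thalamic bursting, was at 12.05, 12.22, 12.27, 12.31 and 12.37 in Con, 12.07, 12.12, 12.18, 12.37 and 13.09 in MS2 and 11.90, 12.42, 12.42, 12.46 and 12.55 in MS5 with its main probe. The value of 13.09 was that of MS2 replicate 4, and no other array was above 12.55. MS2 differed from Con by 0.12 with it and by -0.06 without it. Its second probe read 0.32 ± 0.18 in MS2 and 0.25 ± 0.18 in MS5 against Con, and without MS2 replicate 4 the first of these was 0.10. Cacna1h was at 12.14, 12.39, 12.41, 12.48 and 12.51 in Con, 12.10, 12.30, 12.38, 12.55 and 12.79 in MS2 and 12.25, 12.32, 12.46, 12.54 and 12.68 in MS5. Cacna1i was at 12.01, 12.28, 12.41, 12.44 and 12.72 in Con, 11.98, 12.22, 12.29, 12.31 and 12.47 in MS2 and 12.22, 12.33, 12.48, 12.58 and 12.64 in MS5. Neither gene differed from Con by more than 0.12 in size with its main probe, which was within the spread of the arrays.

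Of the alpha2delta genes, among which Cacna2d1 and Cacna2d2 encode the proteins that gabapentin binds, none had an unadjusted p under 0.05. Cacna2d2 had the widest spread after Scn4b, with its main probe, chr9:107431245-107431304, at 12.08, 12.27, 12.64, 13.09 and 13.26 in Con, 12.44, 12.55, 12.68, 12.80 and 14.56 in MS2 and 12.38, 12.93, 13.27, 13.35 and 13.57 in MS5. The value of 14.56 belonged to MS2 replicate 4, and with it MS2 lay above Con by 0.34 ± 0.37, without it by -0.05. MS5 lay above Con by 0.43 ± 0.37 (unadjusted p = 0.263; exact permutation p = 0.198), and the groups overlapped. Its 3 highest MS5 arrays, replicates 14, 8 and 12, also had the highest means of the diencephalic list in that group, 9.62, 9.86 and 9.51, against 7.68 to 8.68 in Con, and the part of such RNA in the difference was not tested. Cacna2d3 was at 13.34, 13.37, 13.38, 13.50 and 13.89 in Con, 12.84, 13.39, 13.42, 13.42 and 13.74 in MS2 and 13.23, 13.32, 13.68, 13.95 and 14.09 in MS5. Its differences were -0.13 ± 0.18 in MS2 and 0.16 ± 0.18 in MS5. The value of 12.84 was that of MS2 replicate 4, without which MS2 differed from Con by -0.002. Cacna2d1 differed by 0.08 and -0.03 with its main probe, and Cacna2d4 by 0.16 (0.03 without MS2 replicate 4) and 0.23. Without MS5 replicate 9 the main probe of Cacna2d1 was lower in MS5 than in MS2 by 0.18 (a difference of -0.18 ± 0.07). It has no test, since the array left out holds the highest value of that probe, 13.40. In MS5 against Con the other Cacna2d1 probe differed by -0.35 on slide 1 and 0.36 on slide 2.

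The beta genes, whose products sit on the inner face of the channel, showed differences between -0.08 and 0.19 in MS2 and between -0.07 and 0.10 in MS5, with none at an unadjusted p under 0.05. The largest was at 1 probe of Cacnb2, 0.19 ± 0.11 in MS2, where the main probe of the gene read -0.08. Cacnb3, the main beta subunit of hippocampal N-type channels, differed by 0.00 and 0.01, and Cacnb4 by 0.09 and 0.07.

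The gamma genes held 2 of 10 probes in MS2 against Con, 2 of 10 in MS5 against Con and 1 of 10 in MS5 against MS2 with an unadjusted p under 0.05, against 4.17%, 3.91% and 3.97% of all probes. The 60-base probes of Cacng7 and Cacng3 are shown, as they carried the smallest p in MS2 against Con and the largest difference among the probes past an unadjusted p of 0.05 in MS5 against Con. They are written from 5′ to 3′ in the sense of the messenger RNA, with the mm9 positions given by the array's annotation, both on the plus strand.
Cacng7 A_55_P2117407, chr7:3366442-3366501: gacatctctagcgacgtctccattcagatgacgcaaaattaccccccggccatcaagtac
Cacng3 A_55_P2141454, chr7:129912275-129912334: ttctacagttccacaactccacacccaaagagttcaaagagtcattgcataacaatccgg

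Cacng7, which encodes the atypical TARP gamma-7, was at 7.63, 7.74, 7.76, 7.84 and 7.92 in Con, 8.0, 8.01, 8.05, 8.12 and 8.17 in MS2 and 7.79, 7.83, 7.88, 7.92 and 7.97 in MS5 with the probe shown. Every MS2 array lay above every Con array and above every MS5 array. MS2 was higher than Con by 0.29 ± 0.06 (SE, n = 5 per group; limma unadjusted p = 0.000111, adjusted p = 0.97; exact permutation p = 0.00794, the smallest that 5 against 5 arrays allow). MS5 differed from MS2 by -0.19 ± 0.06 (unadjusted p = 0.00367, adjusted p = 1; exact permutation p = 0.00794) and from Con by 0.10 ± 0.06 (unadjusted p = 0.0954). Groups that did not overlap were found for 1 of 55 channel probes in each contrast, and for 0.699%, 0.832% and 0.625% of all probes in MS2 against Con, MS5 against Con and MS5 against MS2. Without MS2 replicate 4 the differences were 0.27 and -0.17, and the groups stayed apart, as they did for 1.44% of all probes in MS2 against Con and 2.14% in MS5 against MS2. The second Cacng7 probe, chr7:3367751-3367810, was at 12.91, 12.98, 12.99, 13.03 and 13.05 in Con, 12.93, 12.98, 12.98, 13.05 and 13.40 in MS2 and 12.91, 13.004, 13.05, 13.06 and 13.08 in MS5. It differed by 0.08 ± 0.07 in MS2 and 0.03 ± 0.07 in MS5, and by -0.01 in MS2 without replicate 4, so the separation was seen with 1 of the 2 probes.

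Cacng2, which encodes stargazin, the TARP that carries AMPA receptors to the synapse, was at 11.72, 11.90, 12.08, 12.27 and 12.31 in Con, 12.23, 12.23, 12.31, 12.49 and 12.89 in MS2 and 12.34, 12.35, 12.37, 12.40 and 12.42 in MS5 with its main probe, chr15:77825290-77825349 on the minus strand. All 5 MS5 arrays lay above all 5 Con arrays, and they were close together (SD 0.04, against 0.25 in Con). MS5 was higher than Con by 0.32 ± 0.13 (limma unadjusted p = 0.0241, adjusted p = 1; exact permutation p = 0.00794). MS2 was higher by 0.37 ± 0.13 (unadjusted p = 0.0105, adjusted p = 0.97; exact permutation p = 0.0714), and by 0.26 without replicate 4 (unadjusted p = 0.0242). MS5 and MS2 differed by -0.05 ± 0.13. In MS5 against Con the unadjusted p was above 0.05 without Con replicate 18, with a difference of 0.23, or without Con replicate 19, with 0.28. The other Cacng2 probe was not well above background on any array.

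Cacng3, the TARP gamma-3 of forebrain excitatory neurons, was at 9.19, 9.44, 9.71, 9.74 and 9.86 in Con, 9.40, 9.78, 9.92, 9.92 and 10.06 in MS2 and 9.78, 9.80, 9.93, 10.02 and 10.08 in MS5. MS5 was higher than Con by 0.33 ± 0.13 (limma unadjusted p = 0.0253, adjusted p = 1; exact permutation p = 0.0317), with 4 of 5 Con arrays below every MS5 array. MS2 was higher by 0.22 ± 0.13 (unadjusted p = 0.11). The unadjusted p of MS5 against Con was above 0.05 without Con replicate 16 or 18 or without MS5 replicate 8 or 9, with differences from 0.23 to 0.30. Cacng4, a TARP of immature neurons and glia, was at 9.69, 9.72, 9.83, 9.83 and 9.89 in Con, 9.74, 9.78, 9.91, 10.03 and 10.58 in MS2 and 9.77, 9.93, 9.98, 10.18 and 10.35 in MS5. Its differences were 0.22 ± 0.14 in MS2 and 0.25 ± 0.14 in MS5, and the highest value, 10.58, was that of MS2 replicate 4, without which MS2 differed by 0.08. Cacng8, the main TARP of hippocampal pyramidal cells, was at 8.22, 8.27, 8.32, 8.35 and 8.49 in Con, 7.34, 8.38, 8.55, 8.56 and 8.62 in MS2 and 8.13, 8.21, 8.26, 8.28 and 8.37 in MS5. The value of 7.34 was that of MS2 replicate 4, and with it MS2 and Con differed by -0.04 ± 0.19. Without it MS2 was higher than Con by 0.20 and MS5 lower than MS2 by 0.28 (a difference of -0.28). The remaining 4 MS2 arrays were then all above the MS5 arrays, and groups did not overlap for 2.14% of all probes in that fit. These have no test, since the array left out holds the lowest value of this probe. Cacng5 was higher in MS2 by 0.19 ± 0.19 and by 0.00 without replicate 4. Cacng1 and Cacng6, the gamma subunits of muscle type, differed by between -0.07 and 0.08.

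**Figure D3:**
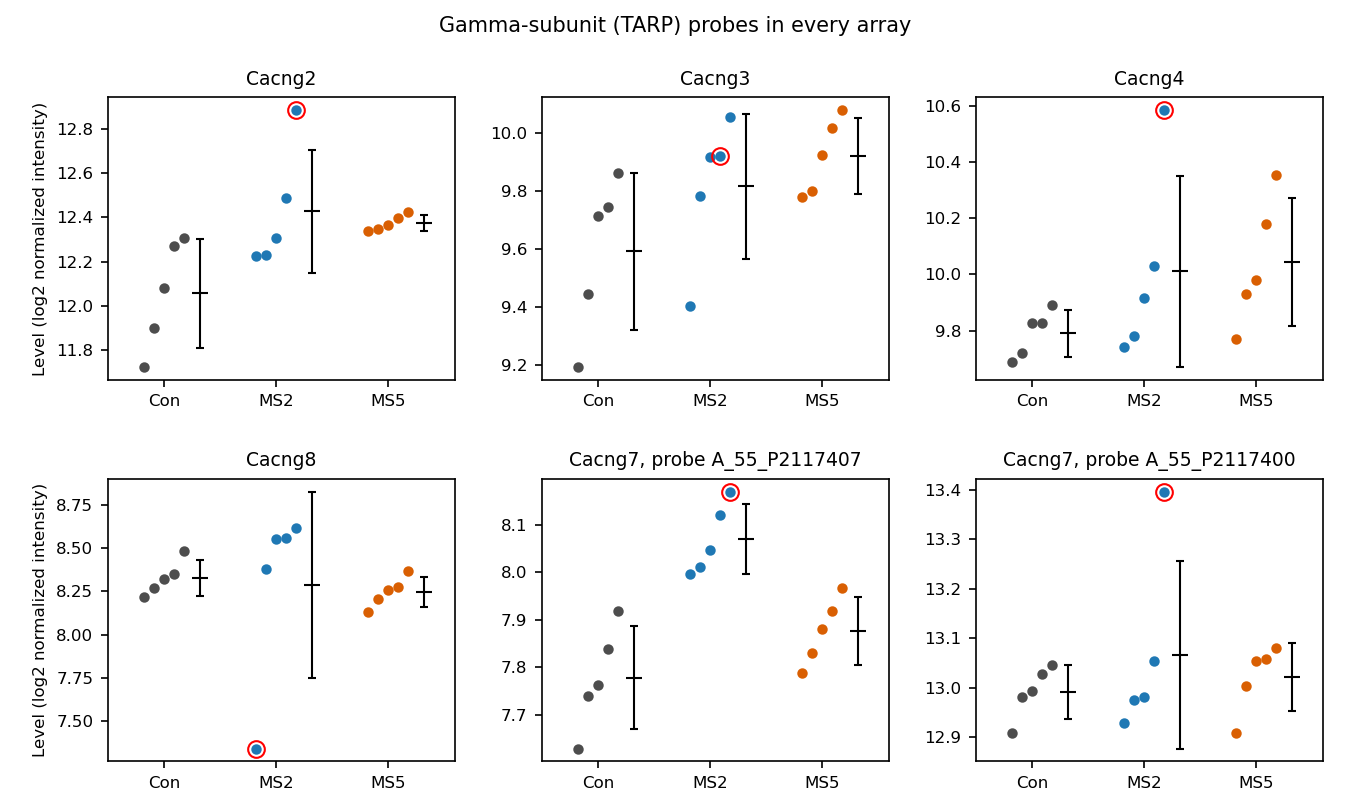
Level (log2 normalized intensity) of 6 gamma-subunit probes in every array of Con, MS2 and MS5, with the mean and SD of each group beside the points; the red circle marks MS2 replicate 4. The MS2 arrays of Cacng7 probe A_55_P2117407 lie above both other groups, the MS5 arrays of Cacng2 lie above Con, and MS2 replicate 4 is the extreme array for Cacng2, Cacng4, Cacng8 and both Cacng7 probes.

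MS2 replicate 4 was the highest or lowest of the 15 arrays for 31 of the 50 channel probes measured on all arrays (62%), against 38.1% of the 36270 probes of the whole array measured on all. It was the highest for 20 and the lowest for 11. The largest excesses over the median of the other 14 were 1.82 for Cacna2d2, 1.58 for Scn4b, 1.09 for Cacna1g and 0.99 for Cacng5, and the largest deficits were -1.0 for Cacng8 and -0.58 for Cacna2d3. Without it, 5 probes had an unadjusted p under 0.05 in MS2 against Con (9.09%, against 4% of all probes). All were higher, against 2.25% higher and 1.75% lower of all, and they belonged to Cacng7, Cacng8, Scn8a, Cacnb2 and Cacng2. For Cacng7, Scn8a and Cacnb2 this was not the main probe, and the main probes differed by -0.01, -0.14 and -0.09. In MS5 against MS2 there were 4 (7.27%, against 6.79%). Cacng8, Cacng7 and Scn8a were lower and Scn3a higher, against 3.81% and 2.98% of all. The Cacng7, Scn8a and Scn3a probes were not the main ones, which differed by 0.04, 0.09 and 0.10. The array left out held the lowest value of the Cacng8 and Scn8a probes and the highest of the Scn3a probe. The counts in MS2 against Con and MS5 against MS2 therefore have no test. In MS5 against Con 10 probes had an unadjusted p under 0.05 (18.2%, against 5.92%). They were 9 higher and 1 lower, against 2.45% and 3.47% of all. The higher ones were 2 probes of Scn1a, 2 of Scn3a, and 1 each of Cacna1g, Cacna2d4, Cacng2, Cacng3 and Cacng4, by 0.19 to 0.33, and the lower one was Cacna1d. The MS5 and Con values are the same in both fits, and the larger number follows from the smaller pooled spread. None of these had an adjusted p under 0.05, and the smallest was 0.522, for Cacng2.

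**Figure D4:**
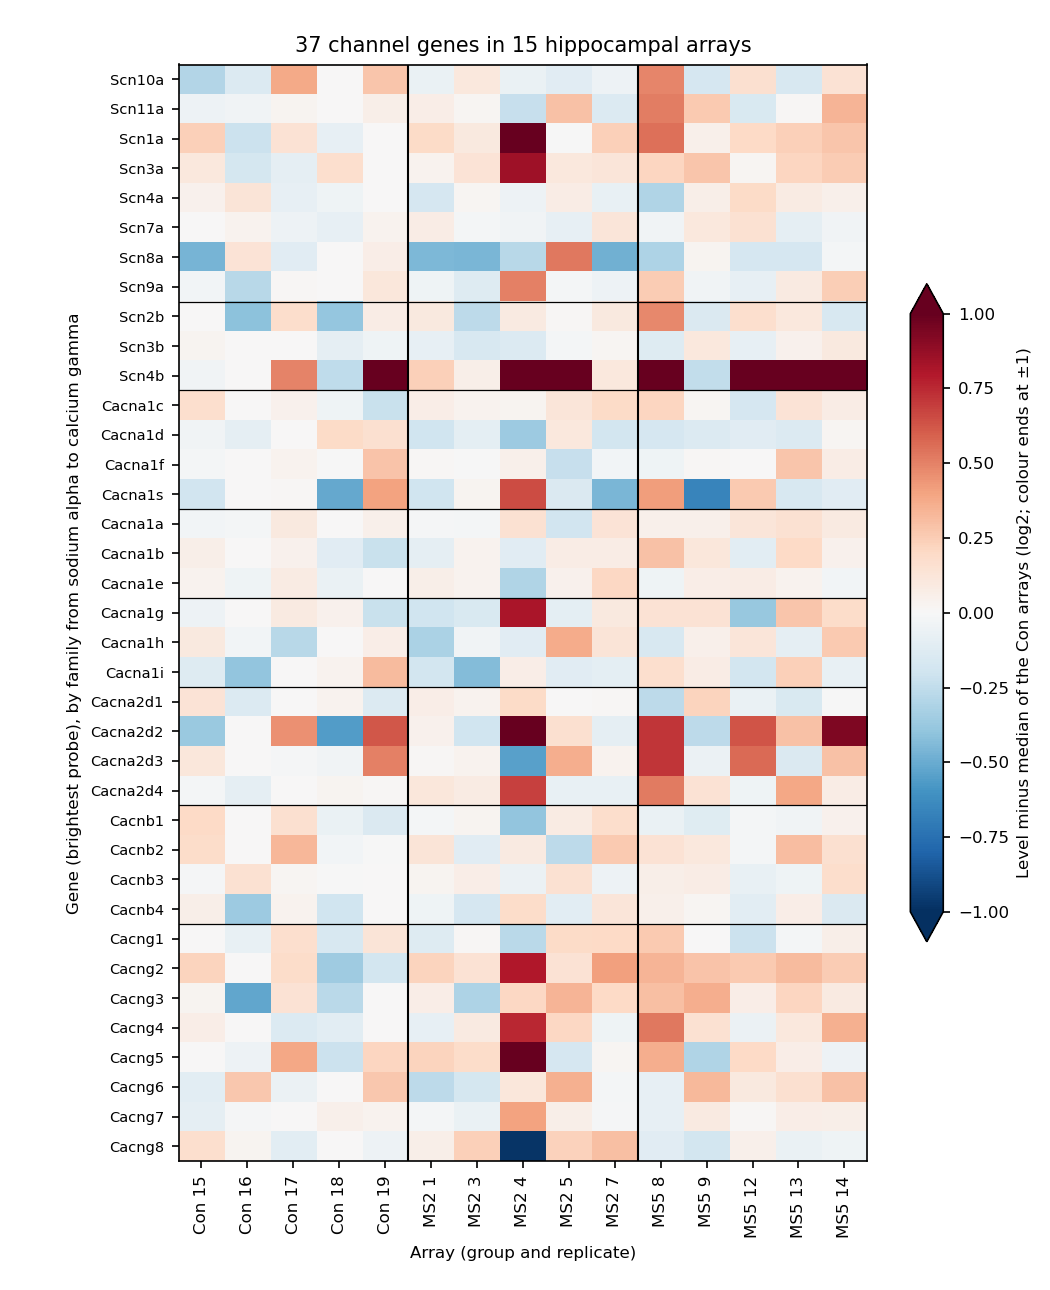
Level of the main probe of each of 37 genes in each array, as the difference (log2) from the median of the 5 Con arrays, with colours ending at 1 above and 1 below; rows are ordered by family and vertical lines part Con, MS2 and MS5. The MS2 4 column has the strongest colours, the Scn4b row has dark fields in all 3 groups, and the Cacng2 row is above the Con median in all MS5 arrays.

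Other single arrays moved these counts too. In MS2 against Con the count of 4 fell to 2 without Con replicate 18, Con replicate 19 or MS2 replicate 7, and rose to 7 without MS2 replicate 5. In MS5 against Con the count of 2 was 0 without Con replicate 18, 1 without Con replicate 19, MS5 replicate 8 or MS5 replicate 9, 5 without Con replicate 15 and 6 without MS5 replicate 12. In MS5 against MS2 the count of 1 was 2 without MS5 replicate 9 or 13, 3 without MS5 replicate 8 or 12 and 4 without MS2 replicate 5. Over all 15 fits the share of all probes was between 2.93% and 6.58% in MS2 against Con, 2.71% and 5.92% in MS5 against Con and 2.77% and 6.79% in MS5 against MS2. The arrays lay on 2 slides of the same scan day. Within slide 1 the MS5 mean was above the Con mean for 40 of 55 channel probes and within slide 2 for 42, with medians of 0.11 and 0.10. For MS2 against Con the counts were 34 and 38, with medians of 0.02 and 0.12, and in MS5 against MS2 38 and 23, with medians of 0.09 and -0.04. The sign of a probe differed between the slides for 20 of 55 in MS2 against Con, 22 in MS5 against Con and 39 in MS5 against MS2. The Cacng7 difference of MS2 and Con was 0.21 on slide 1 and 0.41 on slide 2, that of Cacng2 in MS5 and Con was 0.31 and 0.36, and that of Cacng3 was 0.29 and 0.43.

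Some of the genes lie in clusters on the mouse genome. The 7 probes of Scn1a, Scn3a, Scn7a and Scn9a span 1218 kb of chromosome 2. Their median differences were 0.22 in MS2 and 0.20 in MS5, and 0.04 in MS2 without replicate 4. They include Scn7a, which was near background. Scn2a1 lies inside this span and is not counted, with 0.03 and 0.08 at its main probe and up to 0.28 and 0.17 at its others. The probes of Scn2b and Scn4b, within 24.2 kb of chromosome 9, had medians of 0.28 and 0.61, with 0.18 in MS2 without replicate 4. Scn4b has the wide spread given above. Those of Cacng6, Cacng7 and Cacng8 within 69.1 kb of chromosome 7 had 0.02 and 0.06 (0.10 in MS2 without replicate 4) and those of Cacng1, Cacng4 and Cacng5 on chromosome 11 had 0.19 and 0.01 (0.06 in MS2 without replicate 4). Within the chromosome 7 cluster the main probes of Cacng7 and Cacng8 had differences of 0.08 and -0.04 in MS2, both within the spread. Without MS2 replicate 4 these were -0.01 and 0.20, so both signs rested on that array.

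Partners of these channels were read from a list of 40 genes, 37 of them on the array, that holds anchoring proteins such as Ank3, the Fgf11 to Fgf14 modulators of sodium channels, the Rims proteins that hold calcium channels at release sites, calmodulins and their kinases. In MS2 against Con 1 was higher and 0 lower at an unadjusted p under 0.05, in MS5 against Con 0 and 1, and in MS5 against MS2 1 and 1, against 4.17%, 3.91% and 3.97% of all probes, and 0 passed after adjustment. Without MS2 replicate 4 these counts were 0 and 0, 2 and 1, and 2 and 1. These are 0%, 8.11% and 8.11% of the partners, against 4%, 5.92% and 6.79% of all probes in that fit. Rims1 was higher in MS2 than in Con by 0.33 ± 0.13 (limma unadjusted p = 0.0251, adjusted p = 0.97), and by 0.28 without MS2 replicate 4 (unadjusted p = 0.0598). Calm3, a calmodulin gene, was lower in MS5 than in Con by 0.14 (a difference of -0.14 ± 0.05; unadjusted p = 0.00952, adjusted p = 1) with no overlap of the arrays, and lower than in MS2 by 0.10 (a difference of -0.10; unadjusted p = 0.0452). Camk2d, a calmodulin-dependent kinase, also had no overlap between MS5, at 12.61, 12.70, 12.71, 12.73 and 13.09, and Con, at 12.22, 12.28, 12.40, 12.47 and 12.47, and there MS5 lay higher, by 0.40 ± 0.25 (unadjusted p = 0.128, adjusted p = 1). Calm3 and Camk2d alone of the 37 partners had no overlap in MS5 against Con, as did 0.832% of all probes. For Camk2d, MS2 replicate 4 was at 13.83, and in the fit without it the unadjusted p of the same difference was 0.000492 (adjusted p = 0.387). Catsper2, a sperm channel gene, was higher in MS5 than in MS2 by 0.20 (unadjusted p = 0.031), and by 0.12 without MS2 replicate 4 (unadjusted p = 0.0856).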

How the data were processed

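Hippocampal RNA of 15 mice was measured on 1-colour Agilent arrays, 5 per group. The authors deposited the scanner's intensity of each spot (Feature Extraction 10.7.1.1) and a table of log2 values that they had adjusted for background and quantile normalized. Starting from the intensity files, the mean signal was adjusted for the local background median with normexp (offset 50), all 62976 spots per array were quantile normalized between arrays and put on the log2 scale. After removal of 3671 control spots, repeated spots were replaced by their mean. With the first spot of each probe instead, the values equalled the deposited log2 table to within 5e-09. The offset shrinks differences of dim probes. The 9 miR arrays were not used here.

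Groups were compared with limma 3.58.1 in R 4.3.3, in 1 fit of the 3 groups, with Benjamini-Hochberg adjustment over all 55681 probes. Exact permutation tests on single probes were two-sided over all assignments of 5 against 5 arrays. Intervals are those of the limma fit, and p-values measure the spread between animals of a group. The number of arrays limits the precision.

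Values in every array are given for channel probes past 1.5-fold with an unadjusted p under 0.05, those whose groups did not overlap, the 6 with the smallest p in each contrast, and the main probes of the brain sodium channel alpha and hippocampal calcium channel alpha-1 genes. The members, gene lists and rules were chosen with earlier results of these data known. Scn4b, Cacna2d2, the probes named only in fits without certain arrays, the striatal list and the setting without 4 arrays were chosen after values were seen. Symbols were matched by accession to RefSeq (GRCm38.p6) for 52 of 55 probes, all with the same symbol. Probe coordinates are those of the array's annotation (mm9), and exon or UTR positions in that build were not analysed here. Alternatives tried were limma array weights, no offset, the processed signal of the scanner at equal 75th percentiles, the authors' table, the slide as a block, only probes well above background, only the groups compared, other probes for a gene, and each array left out in turn. Of the members, 2 genes count in all totals but are not reported here by name or drawn.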

Additional observations from a re-analysis of the deposited data

Results flagged for a closer look

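Among 22 named channel probes in 3 groups (66 sets of 5 arrays), 8 sets held an array whose gap to its nearest neighbour was over 0.71 of the range of its group. This count has no test and is not set against a rate expected by chance. Many of the probes were chosen by these same values, Scn4b and Cacna2d2 among them, and the sets share arrays. On MS2 replicate 4, Cacna2d2 was at 14.56 (others 12.44 to 12.80), Scn3a at 13.47 (12.65 to 12.76) and Scn1a at 13.38 (12.34 to 12.58). On MS5 replicate 12, Scn3a was at 12.64 (12.83 to 12.89) and Cacna1g at 11.90 (12.42 to 12.55). On Con replicate 19, Scn4b was at 12.18 (7.97 to 8.73) and Cacna2d3 at 13.89 (13.34 to 13.50). On MS2 replicate 5, Scn8a was at 11.58 (10.58 to 10.78).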

How the results depend on the processing

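Counts of channel probes at an unadjusted p under 0.05 moved with the setting, and the cause was not tested except where stated. In MS2 against Con the count of 4 became 8 with array weights (against 7.49% of all probes, and so in the brackets that follow) and 2 with only the groups compared (3.74%), and it ran from 2 to 7 with single arrays left out. In MS5 against Con the count of 2 became 9 with array weights (6.43%), 4 with the slide as a block (4.4%), 10 with only the groups compared (5.78%) and 7 without 4 arrays (6.36%), and ran from 0 (without Con replicate 18) to 10 (without MS2 replicate 4). In MS5 against MS2 the count of 1 became 8 with array weights (9.7%), 2 with the slide as a block (4.82%) and 9 without 4 arrays (9.42%), and ran from 1 to 4. Array weights gave MS2 replicate 4 a weight of 0.257 and MS2 replicate 5 one of 0.36. In all settings 0 channel probes had an adjusted p under 0.05. For the 7 differences of single probes at an unadjusted p under 0.05, 161 alternative values were computed, of which 0 changed sign and 30 lost that threshold. Among all 55 probes, leaving out MS2 replicate 4 changed the sign of 13 differences in MS2 against Con, 0 in MS5 against Con and 18 in MS5 against MS2. With single arrays left out, Cacng7 kept an unadjusted p under 0.05 in 15 of 15 fits in both contrasts (0.25 to 0.33 and -0.21 to -0.17) and Cacng2 in 15 of 15 in MS2 (0.26 to 0.43) and 13 of 15 in MS5 (0.23 to 0.38), Cacng3 in 11 of 15 in MS5 (0.23 to 0.40), Cacna1d in 10 of 15 in MS2 (-0.26 to -0.14) and Scn1a in 4 of 15 in MS2 (0.15 to 0.36). The paper states that untreated controls were littermates kept in the home cage of the treated pups. The sample labels used here give no litter, so arrays could not be paired or blocked by litter. Background limited Scn7a, Scn10a, Cacna1f and 1 probe each of Cacna1s and Cacng2.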
